A study of Mus musculus with 8 samples.

Results

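The genes described are 9 that write, erase or read methyl groups on DNA, taken by name from the authors' deposited comparison of 17171 genes. They are the DNA methyltransferases Dnmt1, Dnmt3a and Dnmt3b with the maintenance cofactor Uhrf1, the dioxygenases Tet1, Tet2 and Tet3, and the methyl-CpG binding proteins Mbd1 and Mbd2. All 9 were found, each under 1 identifier. RNA of the hippocampus was sequenced from 2-month-old C57BL/6 mice, with 4 samples of the control genotype Sumo2 f/f and 4 of the conditional knockout genotype Sumo2 f/f;Emx1-Cre. Both groups therefore carry the Sumo2 alleles flanked by loxP sites, and only the knockout group carries the recombinase Cre. Cre driven by Emx1 acts in excitatory neurons and in glia of the dorsal forebrain lineage, while interneurons, microglia and vessel cells keep the gene, so a change in the recombined cells is diluted in whole-tissue RNA. Nothing in the labels ties the samples to separate animals, so p-values cover the variation among these 8 samples alone, part of which may be technical.

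Methyl groups are placed on the cytosine of CpG dinucleotides. DNMT3A and DNMT3B methylate new sites, DNMT1 copies the pattern to the new strand after replication, and UHRF1 brings DNMT1 to sites methylated on 1 strand. TET enzymes oxidise the methyl group, a step towards its removal, and MBD proteins bind methylated CpG and recruit repressors. In mature neurons DNMT3A also methylates cytosines outside CpG, and oxidised methylcytosine is abundant. Several of these proteins, among them DNMT1, DNMT3A and MBD1, are known substrates of SUMO, the protein modifier encoded by Sumo2 and its relatives. RNA sequencing measures their transcripts and neither their modification by SUMO nor DNA methylation itself.

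Start-site windows from RefSeq (GRCm38.p6) were available for 7 of the 9 genes, 12 windows in all. CpG density differed widely between them, also between starts of the same gene, and 3 windows of writers are shown. Each is the 250 bases upstream of an annotated start, 5′ to 3′ on the gene's strand, free of exons annotated in GENCODE M21, with every CpG in capitals.
Dnmt3a, chr12:3806730-3806979, plus strand: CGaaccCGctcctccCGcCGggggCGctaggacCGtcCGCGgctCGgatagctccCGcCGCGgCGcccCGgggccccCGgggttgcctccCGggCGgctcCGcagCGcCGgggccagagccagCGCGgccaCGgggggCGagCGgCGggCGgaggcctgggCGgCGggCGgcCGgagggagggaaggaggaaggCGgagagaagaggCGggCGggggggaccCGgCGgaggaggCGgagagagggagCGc
Uhrf1, chr17:56304063-56304312, plus strand: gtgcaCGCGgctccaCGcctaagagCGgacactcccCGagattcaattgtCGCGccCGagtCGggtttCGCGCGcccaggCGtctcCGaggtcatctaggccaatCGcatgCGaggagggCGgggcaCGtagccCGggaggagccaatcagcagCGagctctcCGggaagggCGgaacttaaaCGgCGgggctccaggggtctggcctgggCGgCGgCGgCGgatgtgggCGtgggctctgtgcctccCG
Dnmt1, chr9:20952980-20953229, minus strand: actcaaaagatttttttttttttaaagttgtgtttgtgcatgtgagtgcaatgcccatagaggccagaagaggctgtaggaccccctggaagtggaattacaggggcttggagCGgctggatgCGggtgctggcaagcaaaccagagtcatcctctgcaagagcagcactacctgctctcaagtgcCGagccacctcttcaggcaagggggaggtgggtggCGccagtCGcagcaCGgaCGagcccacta
Of the windows shown, that of Dnmt3a held 38 CpG, that of Uhrf1 30 and that of Dnmt1 7. The median over 32851 RefSeq windows of the same length was 6, with quartiles of 2 and 16. Dnmt1 has 2 further starts in RefSeq. The window of the upstream start at position 20959888 held 2 CpG. That of the start at 20952623, not printed because it overlaps a Dnmt1 exon, held 26. Windows of further starts of Uhrf1 and Dnmt3a also overlap exons of their own gene and were not printed. That of Uhrf1 at 56303337 held 10 CpG and neither word searched below. Those of Dnmt3a held 40 at 3807160 and 15 at 3891744. The Uhrf1 window shown also contains TTTCGCGC, 185 bases before its start. This word and TTTGGCGC, both of the form bound by E2F factors at genes of dividing cells, were searched on both strands, where their reverse complements are GCGCGAAA and GCGCCAAA. At least 1 of them was in 215 of the 32851 windows, or 0.654%, and in 2 of the 12 windows of these genes. These were the printed one of Uhrf1 and the one of Dnmt1 at 20952623, which holds GCGCGAAA. A match is a description of the letters and not a binding site.

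No transcript of these 9 genes differed between the genotypes beyond its error, and for 7 of them the 95% interval stayed between a fold of 0.888 and 1.17. None of the 9 genes passed an adjusted p of 0.05 in the authors' deposited table, against 257 of all 17171 genes (1.5%), of which 166 were higher (0.967% of genes) and 91 lower (0.530%). At an unadjusted p of 0.05 the count was also 0 of 9, against 1438 genes (8.37%). Among the 9, 6 log2 fold changes of knockout over control were positive and 3 negative in the authors' deposited table, from -0.25 to 0.06, with a median of 0.03. The median over all genes was 0.00. The largest absolute test statistic among them was 0.810, for Mbd1, and 59.2% of all genes had one no larger. The adjusted p of each of the 9 was 0.9996 in the authors' deposited table. A missed threshold does not show that levels were equal, and the 95% intervals below say how large a change these samples leave room for. Values in single samples were not analysed here, so the spread is given through the standard error (SE) of each log2 fold change.

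The writers come first. Dnmt1 (ENSMUSG00000004099, chromosome 9, 20907209 to 20959888, minus strand), the maintenance methyltransferase, stood at 0.03 (SE 0.0512) in the authors' deposited table, the smallest SE of the 9. Its 95% interval ran from a fold of 0.950 to 1.09. Dnmt3a (ENSMUSG00000020661, chromosome 12, 3806007 to 3914443, plus strand), the main new-site methyltransferase of postnatal neurons, stood at -0.02 (SE 0.0630), with an interval from 0.906 to 1.07. Both intervals include a fold of 1 and are narrow.

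Dnmt3b and Uhrf1 were measured far less precisely. Dnmt3b (ENSMUSG00000027478, chromosome 2, 153649450 to 153687730, plus strand), the methyltransferase of the early embryo, stood at 0.05 (SE 0.310) in the authors' deposited table, with an interval from a fold of 0.678 to 1.57. Uhrf1 (ENSMUSG00000001228, chromosome 17, 56303321 to 56323486, plus strand), whose more CpG-rich start is shown above, had the value farthest from 0, at -0.25 (SE 0.338). Its fold was 0.843 with an interval from 0.533 to 1.33. These were the only SEs of the 9 above the median of all genes, 0.0940, and 81.2% of genes had a smaller SE than Dnmt3b and 83.1% a smaller one than Uhrf1. Part of both transcripts cannot be assigned by sequence alone. Of the 50-base windows of the annotated coding transcripts of Dnmt3b, 11.5% occur exactly in Dnmt3c, a rodent duplicate of Dnmt3b that acts in male germ cells. For Uhrf1 the share was 17.9%, in the 2 genes Gm15953 and Gm5648. The sources used here do not say whether counting kept or dropped such reads, so both values are uncertain beyond their SE. For the other 7 genes the share was at most 0.455%.

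**Figure D1:**
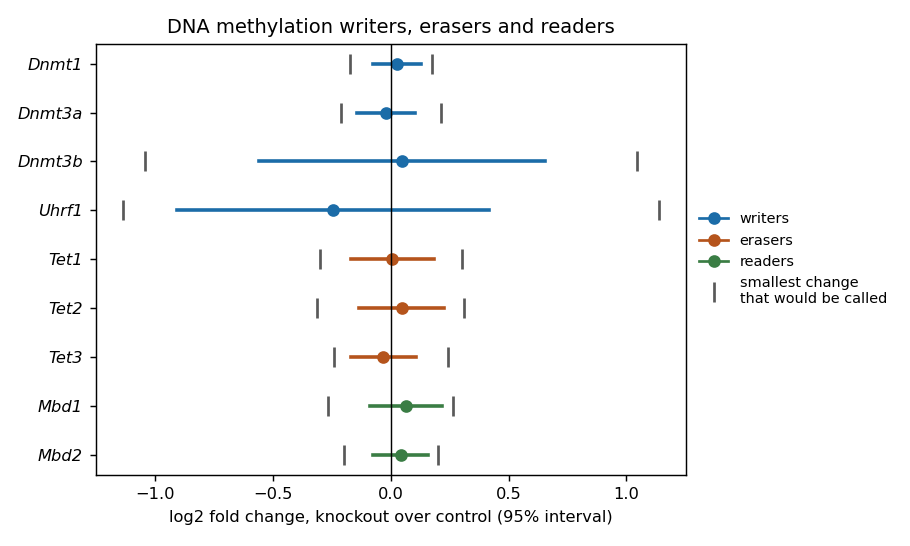
The log2 fold change of knockout over control (x axis) is drawn for each of the 9 genes (points) with its 95% interval (lines), coloured by role; grey ticks mark the smallest change in either direction that would have been called at that SE. Every interval spans 0, and those of Dnmt3b and Uhrf1 are several times wider than those of the other genes.

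The erasers were measured with similar precision to each other. Tet1 (ENSMUSG00000047146, chromosome 10, 62804570 to 62908996, minus strand) stood at 0.01 (SE 0.0898) in the authors' deposited table, with an interval from a fold of 0.888 to 1.13. Tet2 (ENSMUSG00000040943, chromosome 3, 133463679 to 133545139, minus strand), the family member without a CXXC domain of its own, stood at 0.05 (SE 0.0926), with an interval from 0.910 to 1.17. Tet3 (ENSMUSG00000034832, chromosome 6, 83362373 to 83459084, minus strand) stood at -0.03 (SE 0.0713), with an interval from 0.888 to 1.08. Exons of Tet2 overlap those of Gm42567 in GENCODE M21, and exons of Dnmt3a overlap those of the antisense gene Dnmt3aos. Libraries were made with a stranded kit, but the sources used here do not say whether counting used the strand, so reads of such partners may be included.

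With Uhrf1, the readers had the smallest p-values of the 9. Mbd1 (ENSMUSG00000024561, chromosome 18, 74267605 to 74282732, plus strand), a repressor that binds methylated CpG, stood at 0.06 (SE 0.0788, unadjusted p = 0.418) in the authors' deposited table, with an interval from a fold of 0.939 to 1.16. Mbd2 (ENSMUSG00000024513, chromosome 18, 70568189 to 70626131, plus strand), which recruits the NuRD deacetylase complex to methylated DNA, stood at 0.04 (SE 0.0590, unadjusted p = 0.486), with an interval from 0.950 to 1.11. Neither differed from 0 beyond its error.

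The size of change that could have been called differed between genes. The smallest absolute statistic among the called genes was 3.37, so Dnmt1 would have needed a log2 change of 0.17 (1.13-fold) and Mbd2 one of 0.20 (1.15-fold). For Dnmt3a the needed fold was 1.16, for Tet3 1.18, for Mbd1 1.20, for Tet1 1.23 and for Tet2 1.24. Dnmt3b would have needed 2.06-fold and Uhrf1 2.20-fold, so changes of moderate size in these 2 genes were not detectable here. Without them, values of the other 7 genes in the authors' deposited table ran from -0.03 to 0.06, with a standard deviation between genes of 0.0354, smaller than their median SE of 0.0713. The differences among these 7 are thus no larger than their errors.

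**Figure D2:**
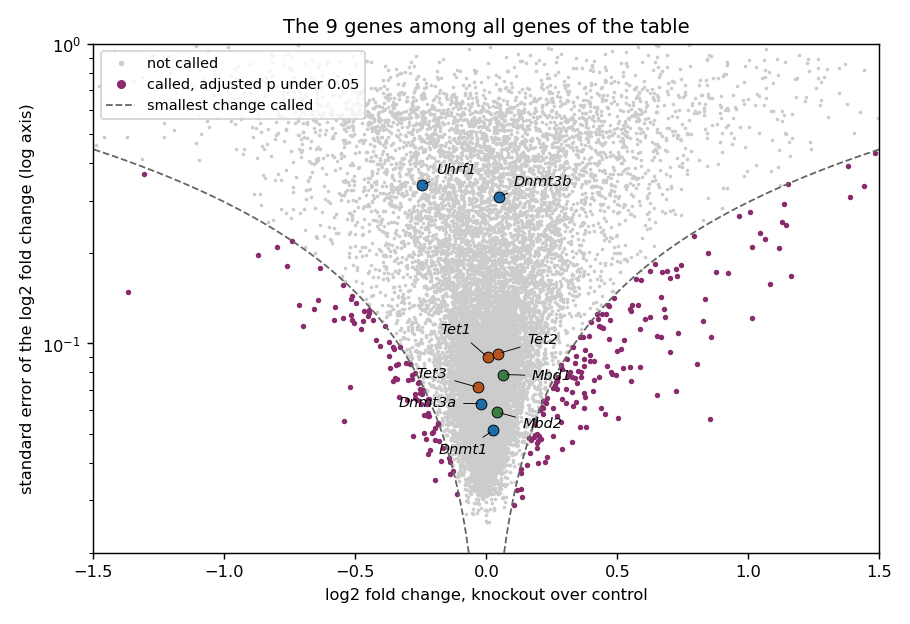
The SE of the log2 fold change (y axis, log scale) is plotted against the log2 fold change of knockout over control (x axis) for the genes within the plotted range, with called genes in purple, the 9 genes labelled in the colours of their roles and dashed curves at the smallest change called. The 9 genes lie in the uncalled centre, 7 of them at or below the median SE of 0.0940.

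The rest of the methylation pathway was read from 7 lists holding 129 genes, of which 111 were in the table. The authors' deposited table calls 2 of them (1.80%, against 1.5% of all genes), both higher and both among the NuRD and corepressor subunits. The lists were chosen with earlier results of these data known, so this share is a description and not a test. Atf7ip, a partner of MBD1 and of the histone methyltransferase SETDB1, rose by 0.50 (SE 0.0565, adjusted p = 1.6e-15). A second identifier under its symbol, absent from GENCODE M21, stood at 0.44 (SE 0.0611). Chd3, an ATPase of NuRD, rose by 0.19 (SE 0.0539, adjusted p = 0.0416) per the authors' deposited table. The 22 measured genes of that list had a median of 0.00, with 13 positive. Hdac1, a deacetylase of the same complex, stood at 0.19 (SE 0.0891, adjusted p = 0.484), and the ATPase Chd4 at -0.06 (SE 0.0512).

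None of the 15 other writers and cofactors was called in the authors' deposited table (median 0.00, 8 positive). Their smallest p-values belonged to Shmt1, a folate enzyme that feeds the methyl cycle, at 0.27 (SE 0.129, adjusted p = 0.502), and Dnmt3l, the catalytically inactive germline partner of the new-site methyltransferases, at -1.24 (SE 0.727, adjusted p = 0.752). Uhrf2, the paralog of Uhrf1, stood at 0.06 (SE 0.0625) and Mat2a, which makes the methyl donor, at -0.08 (SE 0.0627) in the authors' deposited table.

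Downstream of the TET enzymes, 0 of 22 demethylation and repair genes were called (median -0.01, 10 positive). Idh1, which makes the TET cosubstrate, stood at 0.11 (SE 0.0490, adjusted p = 0.463) and the glycosylase Smug1 at -0.14 (SE 0.0771, adjusted p = 0.661) per the authors' deposited table. Tdg, the glycosylase that removes oxidised methylcytosine, stood at 0.10 (SE 0.151).

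Of 14 genes listed as other methyl-CpG readers or relatives of them, none was called (median 0.00, 8 positive). The smallest p-values were those of the transcription factor Klf4, at 0.26 (SE 0.144, adjusted p = 0.673), and Zbtb33, which encodes the reader Kaiso, at -0.08 (SE 0.0436, adjusted p = 0.686) per the authors' deposited table. Mbd3, a NuRD subunit related to Mbd2, stood at -0.03 (SE 0.0559) in the authors' deposited table.

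None was called among 8 CXXC proteins, which bind unmethylated CpG (median 0.03, 5 positive), with Kdm2b at -0.16 (SE 0.0965, adjusted p = 0.779) and Kmt2b at 0.08 (SE 0.0602, adjusted p = 0.900) per the authors' deposited table. The list of 18 histone regulators tied to DNA methylation also had no call (median -0.01, 8 positive). The histone methyltransferase Suv39h1 stood at -0.22 (SE 0.0878, adjusted p = 0.304) and Smchd1, which maintains silencing of the inactive X chromosome, at 0.11 (SE 0.0462, adjusted p = 0.355) per the authors' deposited table.

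Germline genes whose silencing in the body is known to need DNA methylation were a further list. Of its 29 genes, 14 were in the table and none was called (median 0.09, 9 positive). Their median SE was 0.455, so for many of them only large changes could have been called. Brdt, chosen after its values were seen, had the smallest SE, 0.0665, and would have needed a log2 change of 0.22. It stood at 0.10. Tex15 stood at 0.30 (SE 0.176, adjusted p = 0.737) and Xlr3a at 1.06 (SE 0.623, adjusted p = 0.754), while Dazl, an RNA-binding protein of germ cells, stood at 0.07 (SE 0.160) in the authors' deposited table. Morc1 and Tcfl5, germ-cell genes outside this list that were chosen after their values were seen, were called higher, at 3.37 (SE 0.548, adjusted p = 4.1e-07) and 2.74 (SE 0.407, adjusted p = 1.2e-08).

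**Figure D3:**
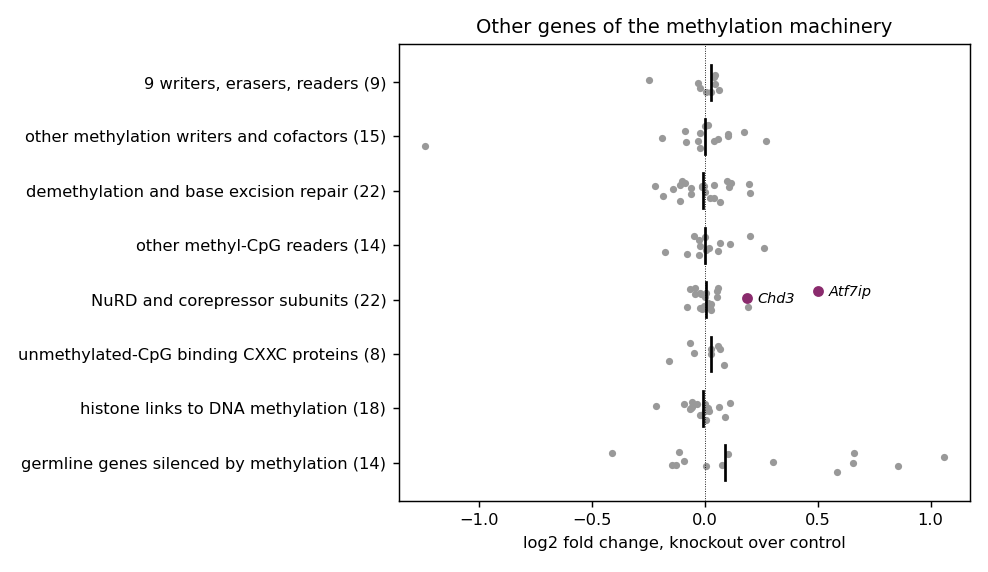
Each point is the log2 fold change of knockout over control (x axis) of 1 gene, for the 9 genes and for 7 lists of related genes with the number measured in brackets; vertical bars are medians and purple points are called genes. Medians lie between -0.01 and 0.09, and only Atf7ip and Chd3 are called.

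Uhrf1 is transcribed mainly in dividing cells, which in the adult hippocampus are few and lie in part in the neurogenic dentate gyrus, while Dnmt1 is also found in mature neurons. Markers of proliferating cells had no call among 17 (median -0.09, 12 negative) in the authors' deposited table, with values from -0.40 (SE 0.237, adjusted p = 0.761) for Mki67 to 0.54 (SE 0.624) for Bub1. Markers of neuroblasts and immature neurons had no call among 10 (median -0.08, 7 negative), with Eomes, a factor of intermediate progenitors, at -1.31 (SE 0.413, adjusted p = 0.0770) and Igfbpl1 at -0.75 (SE 0.263, adjusted p = 0.164), while Dcx, which marks neuroblasts, stood at 0.15 (SE 0.0963) and Stmn1 at 0.10 (SE 0.124). The part of these cells in the values of Uhrf1 and Dnmt1 was not tested. In whole tissue, fewer cells of a type and less RNA per cell cannot be told apart.

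**Figure D4:**
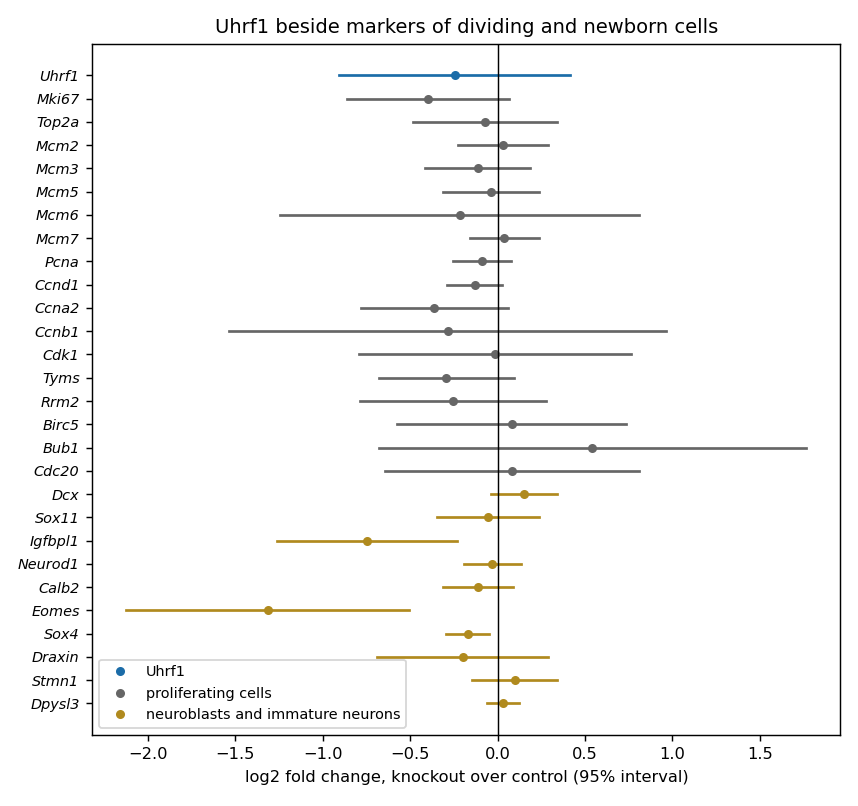
The log2 fold change of knockout over control (x axis) with its 95% interval is shown for Uhrf1, 17 markers of proliferating cells and 10 markers of neuroblasts and immature neurons. The interval of Uhrf1 spans 0, as do those of all markers shown except Igfbpl1, Eomes and Sox4, which lie below 0.

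Among markers of other cell types, of 15 oligodendrocyte markers, 5 were called lower (Ermn, Tspan2, Aspa, Mog and Myrf) and all were negative, with a median of -0.42 in the authors' deposited table, and of 10 precursor markers Olig1 and Enpp6 were called lower (median -0.22). The 9 writers, erasers and readers had a median of 0.03 in the same samples. Markers of dentate granule cells had 2 of 10 called, Lct and Dsp, both higher (median -0.02), and the other 10 marker lists had none. Their medians were 0.04 for excitatory neurons, -0.08 for inhibitory neurons, 0.02 for astrocytes, -0.02 for microglia, 0.17 for endothelial and mural cells, -0.26 for choroid plexus and ependyma, 0.37 for meningeal fibroblasts (9 of 9 positive) and 0.61 for blood cells, besides the dividing and newborn cells above. Median SEs were large for choroid plexus and ependyma (0.463, 12 of 12 negative), meningeal fibroblasts (0.291) and blood cells (0.357, 5 of 6 positive). The part of these cell types in the values of the 9 genes was not tested. Sumo2, the targeted gene, stood in the authors' deposited table at 0.42 (SE 0.252, adjusted p = 0.761). Of its 50-base windows 29.1% occur in 13 other genes, so its value is uncertain in the way of Dnmt3b and Uhrf1. It does not check the genotype labels, on which every direction here rests.

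Around the 9 genes, the windows reaching 1 Mb to each side held between 7 and 56 other measured genes. In all, 6 of 261 neighbours were called (2.30%, against 1.5% of all genes), each of them higher in the authors' deposited table. Near Dnmt1 this was A230050P20Rik, at 0.19 (SE 0.0465). Near Uhrf1 they were Ptprs, a receptor tyrosine phosphatase, at 0.15 (SE 0.0393), and Slc25a23, a mitochondrial carrier, at 0.10 (SE 0.0288). Near Mbd1 they were the endothelial lipase gene Lipg, at 0.67 (SE 0.143), and the small RNA genes Gm23119, at 0.83 (SE 0.141), and Scarna17, at 0.70 (SE 0.166), which lie beside each other. None was called near Dnmt3a, Dnmt3b, Tet1, Tet2, Tet3 or Mbd2.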

How the data were processed

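Per the labels' protocols, hippocampal RNA was made into libraries with a stranded mRNA kit. Tools listed in the submitters' processing notes are STAR, HTSeq, DESeq2, cutadapt and Trim Galore, with no version; build, annotation and strand setting are not given in these sources. Per the file headers, the authors deposited for each gene the log2 ratio of knockout to wild type (read as the control group), a Wald test statistic (a score), its p-value and a p-value adjusted for false discovery. A further 8 columns hold normalized values under names that match no sample label; they were mapped to no sample and not used, so depth per library was not analysed here and precision is known only through the SE.

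The planned fallback for that case was followed: the authors' comparison was described and no gene-level model was fitted. Dividing each log2 fold change by its statistic gave the SE, and 95% intervals were normal. As a check, deposited p-values lay within 2.8e-15 of the statistic's normal p, and deposited adjusted values within 9.6e-15 of a Benjamini-Hochberg adjustment over 17171 genes. Calls needed an adjusted p under 0.05 over all genes. The code for the adjustment was checked on simulated data against another implementation. Errors there were drawn as normal with the SEs used here. The cover of the intervals in them was thus given in advance and does not show that the SEs are right. Coordinates are from GENCODE M21 (GRCm38), in which 16955 identifiers matched, and symbols absent from the table were looked up by its identifiers. Named genes were all 9 members, the called genes of each pathway list or its 2 smallest p-values, called markers, Sumo2 and called neighbours; other named genes (Uhrf2, Mat2a, Tdg, Mbd3, Hdac1, Chd4, Dazl, Mki67, Bub1, Eomes, Igfbpl1, Dcx, Stmn1, Sox4 and those said so in place) were chosen after their values were seen. The members and lists were chosen with earlier results of these data known. Software was scipy 1.17.1, pandas 2.3.3, numpy 2.4.6 and matplotlib 3.10.9 under Python 3.11.15.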

Additional observations from a re-analysis of the deposited data

How the results depend on the processing

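Each of the 9 genes stayed uncalled under every alternative that could be run on it, 50 in all. Adjustment was made over coding genes, and over genes with an SE at or below the median or of at most 0.25. The others were Bonferroni, Benjamini-Yekutieli, and recentring on precisely measured coding genes. Bonferroni and Benjamini-Yekutieli can only raise an adjusted p, so they could add no call. The other adjustments could not either, because an adjusted p cannot fall below its unadjusted p. The smallest unadjusted Wald p of the 9 was 0.418, for Mbd1, so these settings do not test the result. Only recentring alters a log2 fold change, by subtracting -0.0027 from each, and no direction changed. That shift is far smaller than any SE of the 9, so it could add no call. In the other settings the direction could not change. The smallest adjusted p reached was 0.982. Dnmt3b and Uhrf1 could not enter the settings with an SE limit. The count of 0 of 9 also held at an adjusted p of 0.1 and at an unadjusted p of 0.05, which the smallest unadjusted p already implies. It held with a fold of at least 1.5 too, a limit that can only remove calls. The median log2 fold change of 0.03 became 0.02 as a mean weighted by 1/SE squared. At an unadjusted p of 0.05 the lists of other writers and cofactors and of demethylation genes had 1 gene each in place of 0. The histone list had 2 in place of 0 and the NuRD list 3 in place of 2. Over all 7 lists, 7 of 111 genes passed that limit (6.31%), against 8.37% of all genes. Keeping every identifier of a symbol, or matching by symbol only, were chosen after seeing the data and left each list's count within 1.5 times. No paired analysis was possible because the usable columns carry no replicate numbers. Settings that need sample values (pseudocounts, filters, another tool or normalization, leaving out a library) were not run, as no such values were used. Depth was not analysed here, so its limits are seen only in the SE.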

Other observations

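Imprinted genes, whose parent-specific expression depends on DNA methylation, were outside the lists and were picked after earlier results were known. The noncoding Rian and Mirg, of the Dlk1-Dio3 locus on chromosome 12, were called higher, at 0.45 (SE 0.0583, adjusted p = 1.2e-11) and 0.46 (SE 0.134, adjusted p = 0.0403) per the authors' deposited table. Meg3, from the same locus, stood at 0.11 (SE 0.109, adjusted p = 0.9996). The imprinted genes Peg3, at 0.01 (SE 0.0619), Snrpn, at -0.01 (SE 0.0494), and H19, at 0.33 (SE 0.520), were not called in the authors' deposited table.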
